A study of Arabidopsis thaliana with 18 samples.

Results

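Ribosome footprints of ceres-1 seedlings were compared with those of Col-0 seedlings across every gene for which the authors' deposited table gives a footprint fold change. These were 23523 of the 27628 genes in that table. Footprint libraries came from ceres-1 (3 libraries), a mutant of CERES (AT4G23840) in the Col-0 background, and from wild-type Col-0 (3 libraries), all from whole seedlings 9 days old, harvested at Zeitgeber time 5 (5 h after lights on) under control growth conditions. RNA of the same genotypes and age was sequenced in 3 libraries each, and a further allele, ceres-2, was handled in the same way with the same Col-0 libraries as its reference, giving 18 libraries in all. The sources used here do not give the nature of the ceres-1 mutation or the number of seedlings per library.

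Ribosome profiling sequences the stretches of mRNA that ribosomes cover, so that the footprint count of a gene follows both how much mRNA there is and how densely ribosomes sit on it. Most cytosolic translation begins when eIF4E binds the mRNA cap and eIF4G brings in the small ribosomal subunit. CERES is a plant protein that binds eIF4E, and the study asks how translation changes when CERES is lost. Chloroplasts and mitochondria translate their own mRNAs on ribosomes of bacterial type, without eIF4E.

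Values below are log2 fold changes of ceres-1 over Col-0 and adjusted p-values taken from the authors' deposited table, and a gene is called when its adjusted p is below 0.05. The table holds no value per library, so depth, SD and the spread of single genes are unknown, and the adjusted p-value is the only measure of replicate error. Nothing in the labels says that replicates came from separate cultures, so these p-values measure the spread between libraries, which may be technical. Fold changes between scaled libraries are relative to the typical gene. Of the genes with a footprint fold change, 9967 (42.4%) had an adjusted p, and only these are counted as tested. CERES itself had a footprint log2 fold change of -3.77 and an RNA log2 fold change of -4.43 in the authors' deposited table, with no adjusted p for footprints. The leaf markers LHCB3 and RBCS1A and the root markers TIP2;3 and IRT1 were all among the tested genes. So was the seed gene CRA1, at -0.59 in footprints in the authors' deposited table (adjusted p = 0.155). The floral genes AG and AP3 and the seed genes OLEO1 and PER1 had no adjusted p.

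Changes in footprints were small and few. The authors' deposited table calls 64 of the 9967 tested genes (0.642%), of which 35 were higher (0.351%) and 29 lower (0.291%). In the nuclear genome alone 32 of 9856 tested genes were called higher (0.325%) and 25 lower (0.254%). The middle 50% of tested genes lay between -0.12 and 0.12 on the log2 scale, and 15 tested genes (0.15%) reached a 2-fold change. Among the 13556 genes without an adjusted p, 2251 (16.6%) reached a 2-fold change, and none of those can be called. The median log2 fold change was 0.77 for the genes called higher and -0.63 for the genes called lower in the authors' deposited table. In whole seedlings, fewer cells of a type and less RNA per cell cannot be told apart.

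**Figure D1:**
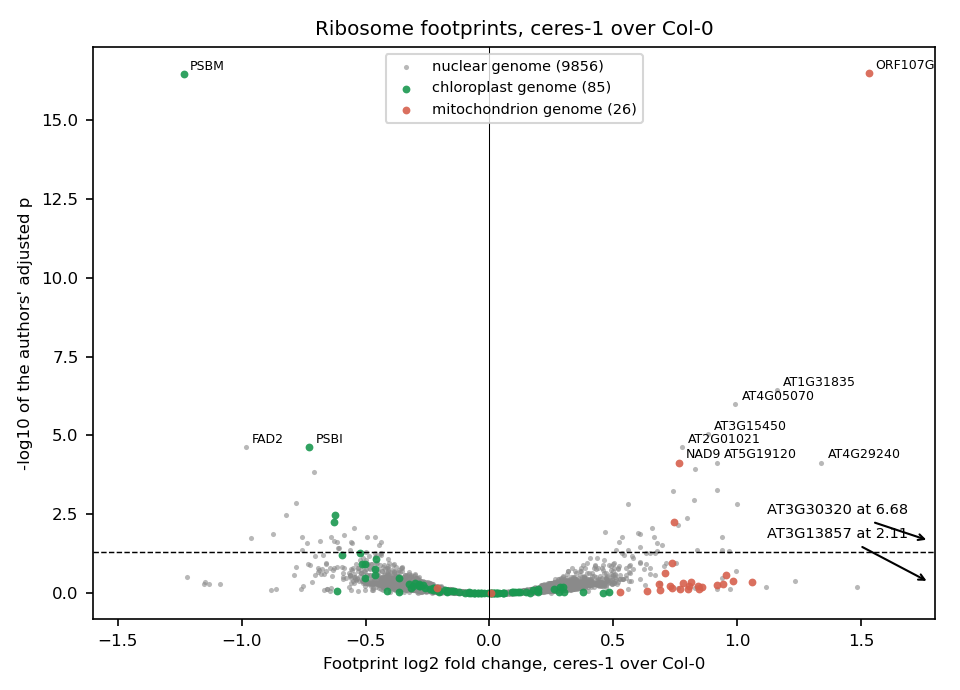
Footprint log2 fold change of ceres-1 over Col-0 (horizontal axis) against -log10 of the authors' adjusted p (vertical axis) for the 9967 tested genes, coloured by genome, with the dashed line at an adjusted p of 0.05. AT3G30320 (6.68) and AT3G13857 (2.11) lie beyond the right edge and are marked by arrows at their heights. PSBM of the chloroplast (-1.24) and ORF107G of the mitochondrion (1.53) have the smallest adjusted p-values.

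Genes of membrane lipids, transport and the cell surface were among those with lower footprints. FAD2, which turns oleate into linoleate in the endoplasmic reticulum, had a footprint log2 fold change of -0.98 and an RNA log2 fold change of 0.12 per the authors' deposited table (adjusted p = 2.37e-05 for footprints). SLD1, which desaturates sphingolipid bases, was at -0.71 in footprints and -0.023 in RNA in the authors' deposited table. Genes whose descriptions name a fatty acid desaturase were also mostly below 0, with 7 of 10 tested members negative and 1 called, SLD1. FAD2 is not in that count, since its description does not carry the words. The plastid desaturases FAD7 and FAD8, which make trienoic fatty acids, stood at -0.48 and -0.49 in the authors' deposited table and were not called (adjusted p = 0.119 and 0.162).

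Transporters among the genes with lower footprints served several substrates. SAG29, also named SWEET15, exports sucrose and had a footprint log2 fold change of -0.78 with RNA at -0.43 per the authors' deposited table (adjusted p = 0.00137). SULTR2;1, a low-affinity sulfate transporter, was at -0.61 in footprints and -0.091 in RNA per the authors' deposited table (adjusted p = 0.0237). The mitochondrial pyruvate carrier gene MPC1 (AT5G20090) was at -0.63 in footprints and 0.34 in RNA per the authors' deposited table (adjusted p = 0.0224). These 3 genes thus differ in what their RNA did, which was lower for SAG29 and higher for MPC1, with no RNA call. AT3G56160, of the sodium bile acid symporter family, was at -0.87 (adjusted p = 0.0131), and VHA-C3, a proteolipid subunit of the vacuolar proton pump, at -0.56 (adjusted p = 0.0445) in footprints in the authors' deposited table. As groups, sugar transporters (1 of 9 tested called lower) and nitrate, sulfate and phosphate transporters (1 of 30 called lower) had medians of 0.058 and 0.0080 on the log2 scale, close to the 0.0064 of all tested genes.

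The lower calls also included genes for cell wall and cell surface proteins. EXPA5, an expansin that loosens walls, had a footprint log2 fold change of -0.76 and RNA at 0.10 per the authors' deposited table (adjusted p = 0.0168). COB (AT5G60920), the GPI-anchored COBRA protein needed for oriented deposition of cellulose, was at -0.50 with RNA at 0.15 per the authors' deposited table (adjusted p = 0.0168). AGP1, an arabinogalactan protein of the cell surface, was at -0.68 with RNA at -0.19 per the authors' deposited table (adjusted p = 0.0224). In all 3 the footprint change went further down than the RNA change. The lipid-transfer proteins AT2G37870 and AT1G62510 stood at -0.76 and -0.61 in footprints per the authors' deposited table (adjusted p = 0.0416 and 0.0366).

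Surface families around these calls lay below 0 as groups, with few members called. Of 28 tested genes described as arabinogalactan or fasciclin proteins, 25 were below 0, with a median log2 fold change of -0.27, against 48.6% of all tested genes below 0. Of 40 tested lipid-transfer genes, 34 were below 0 (median -0.20) and 2 were called lower, where 0.291% of all tested genes were called lower. COBRA-like and GPI-anchored proteins had 13 of 15 below 0 (median -0.23, 1 called lower), and GDSL lipases, a large family of mostly secreted esterases, 25 of 30 (median -0.13, 0 called). The members named in descriptions as extensins or proline-rich proteins, which build the protein network of the wall, had 45 of 53 below 0 with a median of -0.23. Their 1 call was TROL, whose description carries the word hydroxyproline-rich although it is a thylakoid protein. The RNA medians of these 5 families lay between -0.037 and 0.097 on the log2 scale. Extensins, COBRA-like proteins and GDSL lipases, and below them proteases, pectin enzymes, glycosyl hydrolases, kinesins and RING finger proteins, were added after fold changes had been seen, so their counts are a description only.

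Genes on the extensin list also held the lowest footprint values among tested nuclear genes, and none of those lowest members was called. The list goes by description words, so an extensin described otherwise would be missed. The called gene AT4G18670 (-0.82), described only as a leucine-rich repeat family protein, is outside it. All 5 tested nuclear genes that were at least 2-fold lower were on the extensin list, as were 7 of the 10 lowest nuclear genes. They were AT3G54580 (-1.22), AT3G28550 (-1.15), AT1G23720 (-1.15), HRGP1 (-1.13) and EXT3 (-1.09) in footprints in the authors' deposited table, named here after their values were seen. Their RNA log2 fold changes ran from -0.35 to 0.077 and their adjusted p-values for footprints from 0.313 to 0.522 in the authors' deposited table. Coding sequences of these genes are repetitive, with 26.7% to 57.8% of their stretches of 28 bases present more than once in the genome. The sources used here do not say how reads with several matches were counted, so the values of these genes are uncertain. Without the 10 extensin-list members that have at least 10% repeated stretches, the median of the list was -0.16.

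Several other families with many secreted or membrane proteins also had medians below 0, though not all did. Cytochrome P450 genes had 31 of 52 tested members above 0 (median 0.032). The sugar transporters and the nitrate, sulfate and phosphate transporters named above had medians of 0.058 and 0.0080. Subtilases and aspartyl proteases had 30 of 43 tested members below 0 (median -0.15), with the aspartyl protease gene AT5G19120 called higher at 0.92 per the authors' deposited table (adjusted p = 7.27e-05). Xyloglucan enzymes and expansins had 25 of 35 below 0 (median -0.069), peroxidases 34 of 49 (median -0.078), receptor-like kinases 68 of 102 (median -0.042) and aquaporins 18 of 24 (median -0.075). Pectin enzymes and inhibitors had 46 of 76 below 0 (median -0.073) and glycosyl hydrolases 32 of 54 (median -0.026). In ceres-2 footprints, measured against the same Col-0 libraries, the medians were -0.14 for arabinogalactan and fasciclin proteins, -0.099 for COBRA-like proteins, -0.10 for GDSL lipases, -0.033 for lipid-transfer proteins and -0.049 for extensins. Among families given in this paragraph as below 0, they were -0.10 for receptor-like kinases, -0.099 for aquaporins and -0.096 for subtilases and aspartyl proteases. Xyloglucan enzymes and expansins were at -0.049, glycosyl hydrolases at -0.030, pectin enzymes at 0.0011 and peroxidases at 0.070. Cytochrome P450 genes were at -0.046.

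**Figure D2:**
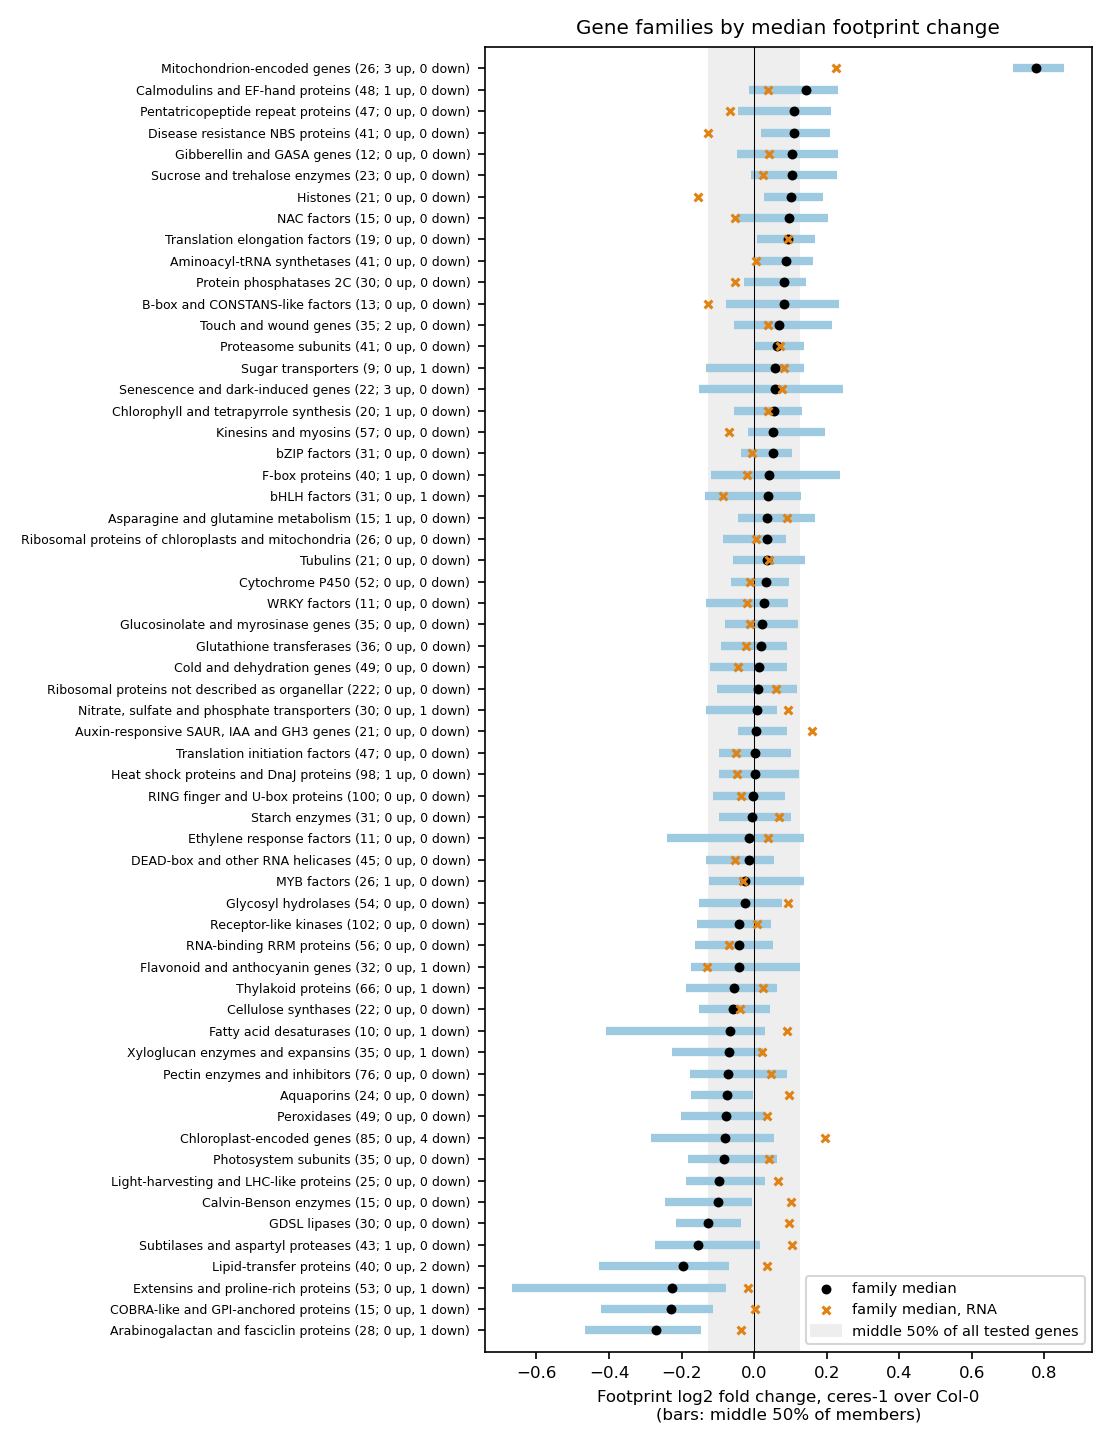
Median footprint log2 fold change of ceres-1 over Col-0 (black points) with the middle 50% of tested members (blue bars) and the RNA median (orange crosses) for 60 families, with the number tested and called beside each name. Mitochondrion-encoded genes stand at 0.78 at the top, and arabinogalactan, COBRA-like, extensin and lipid-transfer families at the bottom between -0.27 and -0.20.

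The other lower calls of the nuclear genome were of several kinds. PIF4, the bHLH factor that promotes growth in shade and warmth, had a footprint log2 fold change of -0.56 and RNA at -0.22 per the authors' deposited table (adjusted p = 0.0256). FBA5, described as an aldolase, was at -0.50 with RNA at 0.21 per the authors' deposited table (adjusted p = 0.0485). BPG3 (AT2G40400), a chloroplast protein involved in chloroplast development, was at -0.61 with RNA at 0.10 per the authors' deposited table (adjusted p = 0.0374). The thylakoid genes CaS, TROL and ALB3 lay between -0.59 and -0.44, and the adenylate kinase gene AMK2 was at -0.55, in the authors' deposited table. TT4, which encodes chalcone synthase, was at -0.64 with RNA at -0.33 per the authors' deposited table (adjusted p = 0.0168). Of 32 tested flavonoid and anthocyanin genes, 20 were below 0 (median -0.042) and TT4 was the only one called. Light-harvesting genes (17 of 25 below 0, median -0.096) and Calvin-Benson enzymes (11 of 15 below 0, median -0.099) had 0 members called; without genes of repeated coding sequence the Calvin-Benson median was -0.19. In chlorophyll synthesis the only call was higher, PCB2 (AT5G18660), the divinyl reductase, at 0.51 with RNA at -0.0073 per the authors' deposited table (adjusted p = 0.0416). The rest of the lower calls were XBAT31 (-0.74), AT4G18670 (-0.82), AT4G09830 (-0.96), AT5G09620 (-0.56) and AT5G35970 (-0.46) in the authors' deposited table.

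Genes with higher footprints included several that encode very short proteins. WIP2 (AT4G05070), a wound-induced polypeptide of plant defence, had a footprint log2 fold change of 0.99 and RNA at 0.19 per the authors' deposited table (adjusted p = 1.02e-06), with a coding length of 264 bases. RTFL17, of the ROTUNDIFOLIA-like peptides that restrain cell proliferation, was at 0.82 with RNA at 0.50 per the authors' deposited table (adjusted p = 0.00115) and has 126 coding bases. MT2A, a metallothionein that binds copper, was at 0.56 with RNA at -0.045 per the authors' deposited table (adjusted p = 0.00151) and has 246 coding bases. Both MT2A and WIP2 therefore had a footprint change well above that of their RNA. Genes with no described function, AT1G31835 (1.16), AT1G32920 (0.94) and AT3G44440 (0.92), were of similar size and had adjusted p-values of 3.75e-07, 0.0168 and 5.37e-04 in the authors' deposited table. AT1G31835 overlaps a small nucleolar RNA gene on the same strand in the RefSeq annotation, so that the source of its reads cannot be told apart. Among other called genes, CBL1, ABCG42, AT2G07725, FBA5 and TROL also overlap another annotated gene on the same strand. How far those overlaps reach was not examined.

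The higher calls also included chaperone, calcium and regulatory genes. Phox4, a tetratricopeptide protein that can act with Hsp90 and Hsp70, had a footprint log2 fold change of 0.80 and RNA at -0.28 per the authors' deposited table (adjusted p = 0.00421). J8, a DnaJ protein of the chloroplast stroma, was at 0.53 with RNA at 0.11 (adjusted p = 0.0168), and DER2.2, a derlin of protein quality control in the endoplasmic reticulum, at 0.84 with RNA at 0.32 (adjusted p = 0.0416), in the authors' deposited table. CBL1, a calcineurin B-like calcium sensor, was at 0.94 with RNA at 0.13 per the authors' deposited table (adjusted p = 0.0416). All 4 showed a footprint change larger than that of RNA. The 98 tested genes whose descriptions name heat shock or DnaJ proteins had a median of 0.0027 with 1 called, Phox4, while J8 is not in that count because its description does not carry the words. Calmodulins and EF-hand proteins lay higher as a group, with 34 of 48 above 0 (median 0.14) and TCH3 called. MYBL2, a repressor of anthocyanin synthesis, was at 0.61 (adjusted p = 0.0131) and the kelch F-box gene AT3G59940 also at 0.61 (adjusted p = 0.0342) in the authors' deposited table.

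The remaining higher calls were of mixed kinds. AT4G29240, of the leucine-rich repeat family, was at 1.34 in footprints and 0.21 in RNA per the authors' deposited table (adjusted p = 7.27e-05). AT1G66130, of the NAD(P)-binding Rossmann-fold superfamily, was at 0.52 with RNA at 0.0021 per the authors' deposited table (adjusted p = 0.0237). Of 22 tested senescence and dark-induced genes, 12 were above 0 and 10 below (median 0.057), and 3 were called higher, against 0.351% of all tested genes. That list was chosen with earlier results of these data known, so the count of 3 is a description only. The called members were ASN1, SEN1 and DIN10, at 0.83, 0.65 and 0.68 in footprints with RNA at 0.46, 0.45 and 0.31 per the authors' deposited table. HSPRO2 and RAV2, which are on no list here, were at 0.998 and 0.56 in footprints with RNA at 0.74 and 0.48 in the authors' deposited table. RNA and footprint changes of these 5 genes had the same sign, although no RNA change was called. MEE14, AT3G15450 and AT3G07350 had RNA changes at or above their footprint changes, with AT3G15450 at 0.88 in footprints and 1.13 in RNA in the authors' deposited table. AT3G30320, which has no described function, was at 6.68 in footprints and 1.79 in RNA per the authors' deposited table (adjusted p = 0.0224), and its ceres-2 value of 0.66 has no adjusted p. GRP3S, a glycine-rich protein gene, was at 0.47 (adjusted p = 0.0113) and the ABC transporter gene ABCG42 at 0.74 (adjusted p = 5.97e-04) in the authors' deposited table.

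RNA changes at the called genes were set beside their footprint changes. Of the 35 genes called higher, 25 had an RNA change of the same sign (71.4%), with a median RNA log2 fold change of 0.31. Of the 29 called lower, 12 had an RNA change of the same sign (41.4%), with a median of 0.068. Over all tested genes the share was 48.1%. The difference of footprint and RNA was below 0 for all 29 lower genes, from -1.33 to -0.21, and above 0 for 29 of the 35 higher ones. The sign of that difference is partly fixed by the choice of genes on footprints, and it is given as a description. RNA was called for 2 of the higher genes, AT3G15450 and MEE14, and for 0 of the lower ones, among 6 RNA calls over 24142 genes (0.0249%). Translational efficiency was called for 2 of the 35 higher genes and 4 of the 29 lower ones, and for 9 of all 9967 genes tested in footprints. Over the 12120 genes tested for efficiency, the share called was 0.107%. Efficiency contains the footprint change, so a choice of genes on footprints favours efficiency calls, and these counts are a description. Per the authors' deposited table, the efficiency adjusted p was 0.00253 for PSBM, 0.00574 for PSAJ, 0.0150 for FAD2 and 0.0492 for AT2G37870, with footprint minus RNA differences of -1.17, -1.25, -1.11 and -1.05. Among higher genes it was 0.0150 for AT2G07725 and 0.0346 for NAD3, with differences of 1.27 and 1.26, in the authors' deposited table. Across the 9967 genes, footprint and RNA log2 fold changes had a Pearson r of 0.022 and a Spearman rho of -0.051, where the genes are not independent replicates and each layer has libraries of its own.

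**Figure D3:**
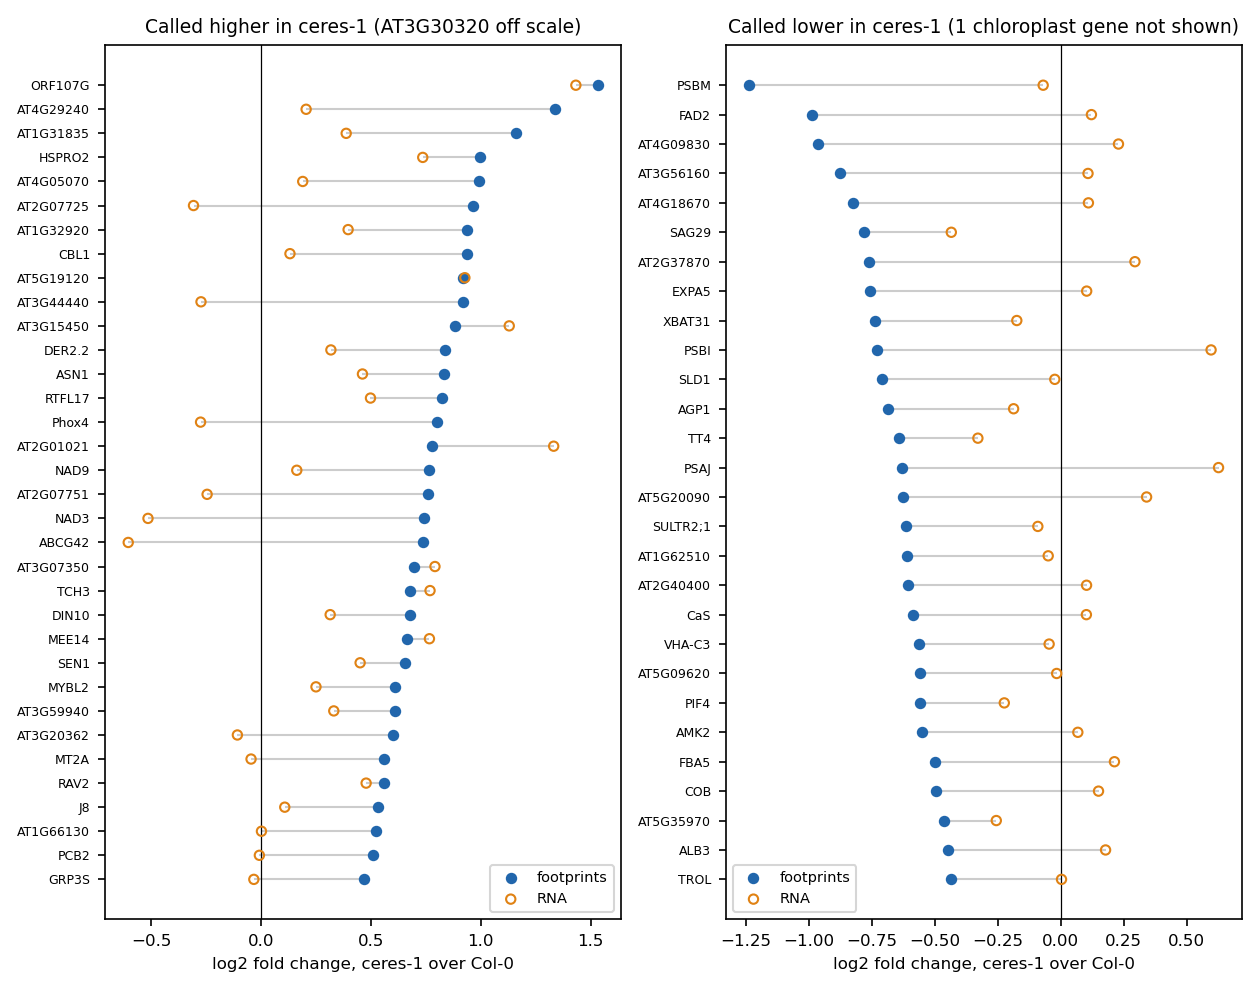
Log2 fold change of ceres-1 over Col-0 in footprints (filled points) and RNA (open points) for genes called higher (left, without AT3G30320 at 6.68) and lower (right, without 1 chloroplast gene). RNA points of the lower genes scatter around 0, with a median of 0.068, while those of the higher genes have a median of 0.31.

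The start codon surroundings of called genes are shown because the context of the start codon and ATGs in the 5′ leader are the parts of an mRNA that an initiating ribosome meets before the coding sequence. The 6 genes in each direction with the smallest adjusted p, among nuclear genes with under 10% repeated stretches, are printed from RefSeq TAIR10.1, mRNA sense strand 5′ to 3′, with 9 bases before the start codon and the start codon in capitals. Those called lower come before those called higher.
FAD2: tccagaaacATGggtg
SLD1: tcgtcgtcaATGgcgg
SAG29: ctatagaaaATGggag
AT4G18670: tgtgaagtaATGaaga
AMK2: gagagagacATGacgg
AT3G56160: tctactcccATGgcga
AT1G31835: caaagtttgATGcttt
AT4G05070: tataatcggATGaata
AT3G15450: aaaacgaaaATGttgg
AT4G29240: aaggaaaaaATGtcta
AT5G19120: acacttctaATGgctt
ASN1: aaaaaaaacATGtgtg

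A G directly after the start codon (position +4, counted from the A of ATG) was present in 4 of the 6 lower genes and in 1 of the 6 higher genes shown. Over all nuclear calls with an annotated 5′ leader, G stood at +4 in 12 of 28 higher genes (42.9%) and 18 of 25 lower genes (72.0%), against 60.6% of tested nuclear genes. A purine at position -3, the other base known to favour initiation, was as frequent in higher (75%) and lower genes (76.0%) as in all tested genes (76.6%). An ATG in the leader was present in 14 of 28 higher genes (50%) and 17 of 25 lower genes (68.0%), against 61.1% of tested genes. Leaders had median lengths of 189 bases in higher genes, 208 bases in lower genes and 197 bases in all tested genes. Coding length had medians of 688.5 bases in higher genes, 1188 bases in lower genes and 1236 bases in all tested genes, and the median number of exons was 2 in higher genes, 5 in lower genes and 6 in all tested genes. Coding sequences under 300 bases were found in 8 of 32 higher nuclear genes (25%), 0 of 25 lower genes and 2.49% of tested genes. These features were compared after the calls were known, with no test.

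**Figure D4:**
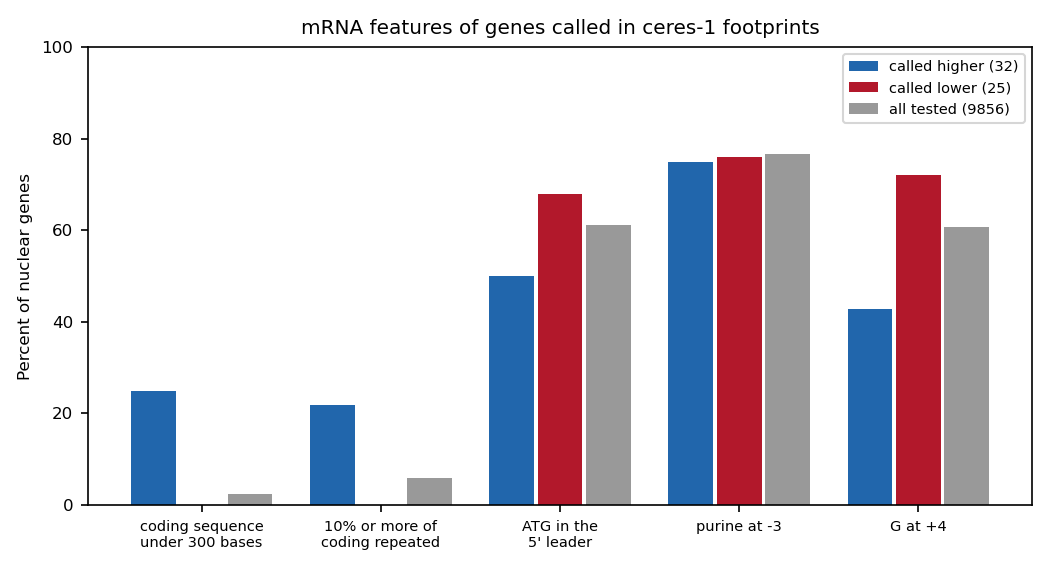
Percent of nuclear genes called higher (32), called lower (25) and tested (9856) that carry each mRNA feature in RefSeq TAIR10.1; leader and start codon features are percentages of the genes with an annotated 5′ leader. Short coding sequences (25%) and repeated coding sequence (21.9%) are most frequent among the genes called higher, and G at +4 (72.0%) among those called lower.

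Repeated sequence lay on the side of the higher calls. At least 10% of the coding stretches of 28 bases occurred more than once in the genome for 7 of the 32 higher nuclear genes (21.9%) and 0 of the 25 lower ones, against 5.81% of tested nuclear genes. The 7 were AT2G01021, AT2G07751, AT2G07725, AT3G20362, ABCG42, TCH3 and GRP3S. Part of AT3G20362 (37.6%) matches the plastid genome, and AT2G07751 and AT2G07725 match the mitochondrial genome over their whole length. The values of these genes are uncertain for the same reason as those of the extensins.

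Mitochondrion-encoded genes formed the group that stood farthest from 0. Of 26 tested, 25 were above 0 in footprints, with a median log2 fold change of 0.78. Of the 26, 3 were called higher (11.5%), against 0.351% of all tested genes. ORF107G, which has no described function, was at 1.53 in footprints and 1.43 in RNA per the authors' deposited table (adjusted p = 3.25e-17). NAD9, a subunit of respiratory complex I, was at 0.77 with RNA at 0.16 per the authors' deposited table (adjusted p = 7.27e-05). NAD3, of the same complex, was at 0.74 with RNA at -0.51 per the authors' deposited table (adjusted p = 0.00557). All 11 tested entries for complex I lay above 0, between 0.53 and 1.06, where NAD1A, NAD1B and NAD1C are parts of the same gene. The 3 cytochrome c oxidase genes COX1, COX2 and COX3 lay between 0.80 and 0.85. The 5 ATP synthase entries with ATP names lay between 0.0070 and 0.94. These groups go by gene symbol, so genes under ORF names, such as ORF25 (0.96), are in none of them.

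Mitochondrial footprint values were alike across complexes, while most single genes missed the threshold. COX1, the core oxidase subunit, was at 0.85 in the authors' deposited table with an adjusted p of 0.732, and COB (ATMG00220), cytochrome b of complex III, at 0.84 with an adjusted p of 0.604. The exceptions to the shift were ATP9, a membrane subunit of ATP synthase, at 0.0070, and ORF110A at -0.21 in the authors' deposited table. RNA of the 26 genes had a median of 0.23, and the difference of footprint and RNA a median of 0.58, above 0 in 24 of them. Nuclear genes at least 90% of whose coding stretches match the mitochondrial genome followed the same pattern, with 11 of 13 above 0 and a median of 0.76. Their reads cannot be told apart from those of the mitochondrial genes, and AT2G07751 and AT2G07725, 2 of these 13, account for 2 of the higher nuclear calls. In ceres-2 footprints, which share the Col-0 libraries, the median of the 26 genes was 0.58. Separate Col-0 and ceres-1 levels are not in the table, so whether the shift sits in particular libraries was not tested.

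Chloroplast-encoded genes lay lower in footprints than in RNA. Of 85 tested, 53 were below 0 in footprints (median -0.081), while 69 were above 0 in RNA (median 0.20). In footprints 4 were called lower (4.71%), against 0.291% of all tested genes. The difference of footprint and RNA was below 0 in 72 of 85, with a median of -0.29. PSBM, a small subunit of photosystem II, was at -1.24 in footprints and -0.069 in RNA per the authors' deposited table (adjusted p = 3.45e-17). PSBI, another small photosystem II subunit, was at -0.73 with RNA at 0.60 per the authors' deposited table (adjusted p = 2.37e-05). Its efficiency was not called, with an efficiency adjusted p of 0.76 in the authors' deposited table. PSAJ, of photosystem I, was at -0.63 with RNA at 0.63 per the authors' deposited table (adjusted p = 0.00557). Each of these 3 genes had lower footprints with RNA that was near 0 or higher.

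Plastid gene groups differed in their footprint values. All 13 tested entries for proteins of the small ribosomal subunit were below 0 (median -0.31), as were 10 of 11 for the large subunit (median -0.29). Some of these entries are the copies of RPS7, RPL2 and RPL23 in the inverted repeat or parts of the trans-spliced RPS12, which can share reads. Photosystem I genes (5 of 5 below 0, median -0.22) and cytochrome b6f genes with PET names (4 of 4 below 0, median -0.19) lay lower as well. The groups go by the start of the gene symbol, so genes under YCF or ORF names are in none of them. Among these, YCF6 was at -0.62, ORF31 at 0.030 and YCF9 at 0.48 in footprints in the authors' deposited table. Photosystem II genes with PSB names did not lie lower, with 9 of 14 above 0 and a median of 0.017 despite the calls of PSBM and PSBI. The 4 genes of the plastid RNA polymerase were all above 0 (median 0.15). RBCL, the large subunit of Rubisco, was at 0.18 in footprints and 0.37 in RNA in the authors' deposited table and PSBA, the D1 protein of photosystem II, at 0.054 and 0.65, neither called. In ceres-2 footprints the median of the 85 chloroplast genes was 0.037.

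**Figure D5:**
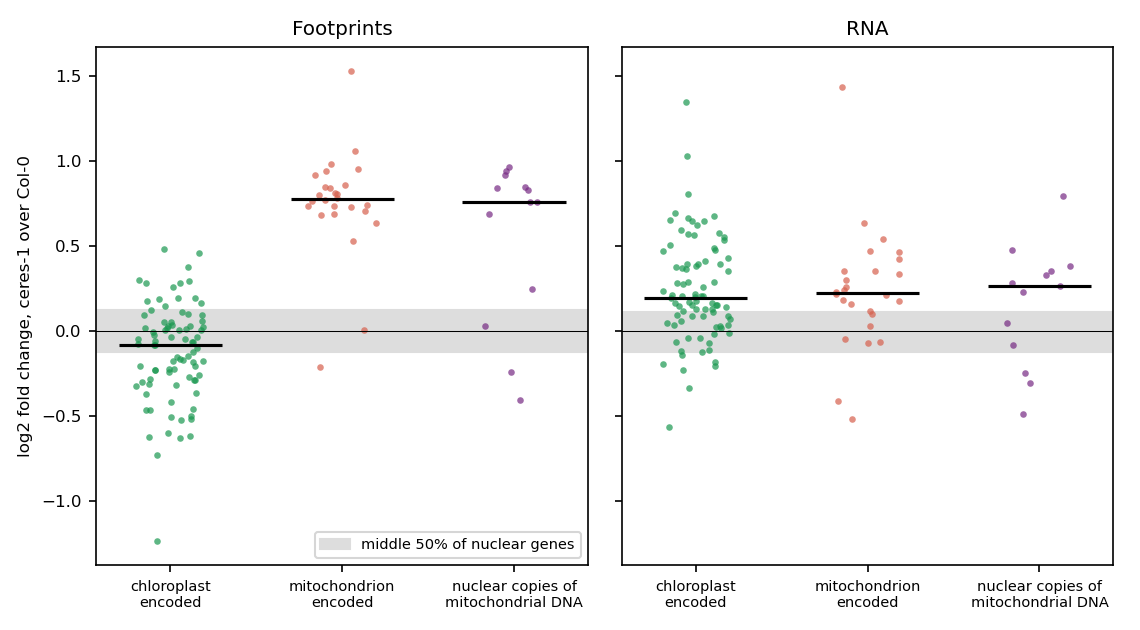
Log2 fold change of ceres-1 over Col-0 in footprints (left) and RNA (right) for tested genes of the chloroplast (85) and mitochondrion (26) and for 13 nuclear genes that match the mitochondrial genome, each point 1 gene, with the median as a black line and the middle 50% of nuclear genes in grey. Footprint medians are -0.081, 0.78 and 0.76, and RNA medians 0.20, 0.23 and 0.27.

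The listed nuclear genes of the translation apparatus held no call, where 0.642% of all tested genes were called. At that share, an absence of calls in lists of this size is not read as a result about these genes. Of 222 tested ribosomal protein genes not described as organellar, 116 were above 0 with a median log2 fold change of 0.010, and 0 were called. AT2G07725, described as a ribosomal L5P family protein, is outside that list by its wording and was called higher, at 0.97 with RNA at -0.31 per the authors' deposited table (adjusted p = 0.0478). Its coding sequence is the one named above that matches the mitochondrial genome over its whole length. The 47 tested initiation factor genes, the family of the known partners of CERES, had a median of 0.0034 with 24 above 0 and 0 called. Elongation factors (15 of 19 above 0, median 0.094) and aminoacyl-tRNA synthetases (30 of 41 above 0, median 0.087) lay slightly higher, again with 0 called. Without genes of repeated coding sequence, 6 of the 19 elongation factors among them, the elongation factor median was 0.028 and the initiation factor median -0.017. The genes AT1G07920, AT1G07930 and AT1G07940, all described as elongation factors, lay between 0.29 and 0.32 per the authors' deposited table with adjusted p-values from 0.206 to 0.337, and as near-identical copies they can share reads. An adjusted p above the threshold does not show that these genes were unchanged, and the table gives neither an interval nor an unadjusted p for them.

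Several other families of intracellular proteins lay above 0 by small amounts, though not all did. Histones had 16 of 21 tested members above 0 in footprints (median 0.10) with an RNA median of -0.15. Proteasome subunits had 31 of 41 above 0 (median 0.062), disease resistance NBS proteins 32 of 41 (median 0.11) and pentatricopeptide repeat proteins 32 of 47 (median 0.11). In each of these 0 were called, where 0.642% of all tested genes were. Kinesins and myosins had 40 of 57 above 0 (median 0.053). RNA-binding RRM proteins (32 of 56 below 0, median -0.042) and RNA helicases (26 of 45 below 0, median -0.015) lay on the other side. Both of these lists were added after fold changes had been seen. In ceres-2 footprints the medians were 0.10 for histones, 0.044 for proteasome subunits and 0.027 for kinesins and myosins. They were -0.11 for disease resistance NBS proteins and -0.046 for pentatricopeptide repeat proteins. Of the 60 groups described, 22 held at least 1 called gene. Of the 64 calls, 28 (43.8%) belonged to any of the groups, against 23.4% of all tested genes. The lists were chosen with earlier results of these data known, and some were added after fold changes had been seen. This share is therefore a description only, and it includes the 4 chloroplast and 3 mitochondrial calls. RING finger and U-box proteins (50 of 100 above 0) and cold and dehydration genes (25 of 49 above 0) were evenly split.

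Around the threshold the calls had similar fold changes on both sides. The 5 genes just inside it were FBA5, AT2G07725, TCH3, VHA-C3 and RAV2, with adjusted p-values from 0.0444 to 0.0485 in the authors' deposited table. The 5 just outside were EBF1 (0.63), AT2G33830 (0.67), LP1 (-0.44), ENODL2 (-0.46) and AT2G05540 (0.65) in footprints, with adjusted p-values from 0.0525 to 0.0531 in the authors' deposited table. LP1 is on the list of lipid-transfer proteins, and ENODL2, an early nodulin-like protein, is on none of the lists.

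The called genes can be set beside their ceres-2 values, which are measured against the same Col-0 libraries and are not independent of them. The authors' deposited table calls 1.88% of its tested genes in that comparison. Among the genes of membrane lipids they were -0.94 for FAD2 (adjusted p = 6.63e-13) and -0.71 for SLD1 (adjusted p = 5.03e-07) in the authors' deposited table. The thylakoid genes CaS, TROL and ALB3 were at -0.615, -0.58 and -0.65 in ceres-2, with adjusted p-values from 3.25e-07 to 1.22e-06, and AT4G18670 was at -0.87 (adjusted p = 1.08e-07), in the authors' deposited table. Among the cell wall and surface genes named above, ceres-2 footprints were -0.52 for EXPA5, -0.33 for COB (AT5G60920), -0.062 for AGP1, -0.15 for AT1G62510 and 0.054 for AT2G37870 in the authors' deposited table, none called. Among transporters they were -0.95 for SULTR2;1 (adjusted p = 4.14e-08), -1.27 for SAG29 (adjusted p = 0.206) and -0.013 for MPC1 (AT5G20090) in the authors' deposited table. Among the higher genes they were 0.90 for Phox4 (adjusted p = 0.761), 0.79 for J8 (adjusted p = 1.10e-09), 0.35 for CBL1 (adjusted p = 0.781) and 0.60 for MYBL2 (adjusted p = 1.19e-05) in the authors' deposited table. DIN10 was at -0.062 in ceres-2 (adjusted p = 0.970), in the authors' deposited table. Over all called genes, ceres-2 values ran from -0.062 to 1.71 for the 35 higher ones and from -1.27 to 0.054 for the 29 lower ones in the authors' deposited table. No contrast of the alleles with each other was available, so a difference between them was not tested.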

How the data were processed

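A TruSeq Ribo Profile kit was used, per the labels' protocols. The submitters' processing notes name TopHat2 2.1.0, featureCounts 1.6.2 and DESeq2. For the build, the strand setting and reads with several matches nothing is stated there. The file holds log2 fold changes made by the authors for each mutant over Col-0, per the file headers. It also holds the adjusted p-values deposited by the authors, empty for many genes. The planned fit to values per library could not be made on this table, so the authors' adjusted p-values took its place. Efficiency is given as footprint minus RNA log2 fold change, since the deposited efficiency fold change follows the footprint one; efficiency calls use its adjusted p-value.

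Genes were grouped by words in their deposited descriptions into 58 families, so a description that only mentions a word counts too, and genes with no description to read (1376) were placed by symbol alone. The 2 organelle genomes form 2 more groups. The members and lists were chosen with earlier results of these data known, and 10 families were added after fold changes had been seen. Named genes are those called in ceres-1 footprints, the 5 on each side of the threshold, CERES and up to 4 members per family with the smallest adjusted p; extensins, organelle genes and tissue markers named beyond these were chosen after their values were seen. Of 27628 identifiers, 27420 matched RefSeq TAIR10.1, used for names, coding and leader sequence, and shares of 28-base stretches found more than once in the genome. Computations used Python 3 with pandas and numpy, and the sequence measures were tested on simulated data. Alternatives were other thresholds, a fold minimum and subsets of genes. Values of 2 genes are not reported here.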

Additional observations from a re-analysis of the deposited data

How the results depend on the processing

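At an adjusted p below 0.01, 18 genes were called higher and 9 lower, against 35 and 29 at 0.05, and at 0.10 there were 46 lower calls. The share of higher calls with an RNA change of at least 50% of the footprint change was 37.1%, close to the 33.1% of all tested genes. It was 54.3% when at least 25% was asked. For lower calls these shares were 10.3% and 17.2%. Calls with at least a 1.5-fold change, the nuclear genome, or nuclear genes with under 10% repeated stretches (25 higher and 25 lower, a setting added after seeing the data) stayed within 1.5 times the counts given. Of 60 family medians, 58 moved by less than 0.1 when all genes with a fold change were used; the NAC factors moved to -0.051 and mitochondrion-encoded genes to 0.95. No median moved by 0.1 without genes of repeated coding sequence. No paired analysis was possible because only group comparisons, not library values, are given. For the same reason leaving out a replicate, other normalizations and count filters were not run. Depth is unknown, and so is the limit it sets.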
